A study of Mus musculus with 2 samples.

Results

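The Hox cluster genes were examined in newborn mice, in RNA from tooth and RNA from skin. They are 38 genes whose name on the array is Hox followed by a cluster letter and a number, out of 24323 named genes, and 42 of the 55675 probes measured on both arrays belong to them. The mice were wild-type, and the labels place them at postnatal day 0, whereas the methods of the study give 1 day later, and no treatment is given. Tooth RNA and skin RNA were each labelled with Cy3 and hybridised to 1 Agilent array of 60-base probes. The methods speak of isolated tooth germs and skin. The number of animals behind each array and the body region of the skin are not given in the sources used here. With 1 array per tissue no difference could be tested, no SD between animals exists, and no difference has a replicate check.

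Hox genes encode homeodomain transcription factors and lie in 4 clusters, Hoxa to Hoxd, in which a number from 1 to 13 names the paralog group. Low numbers are used from the hindbrain and neck backward, high numbers in the lumbar and tail region and in the distal limbs, so the set of active Hox genes marks the position of a cell along the body axis. The neural crest that fills the jaws and builds the tooth mesenchyme is known to develop without Hox expression, whereas trunk skin carries a Hox code of its own, and Hoxc13 is known as a regulator of keratin genes in the hair shaft.

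The identity of both tissues was checked on marker genes. The 4 ameloblast markers (Amelx, Ambn, Enam, Mmp20) and the 4 odontoblast markers (Dspp, Dmp1, Phex, Sp7) all exceeded background in tooth and none did so in skin. The 4 epidermal markers (Krt1, Krt10, Flg, Lor) were at least 2-fold higher in skin. So were 6 of 6 skeletal muscle markers, whose summed processed signal was 3762.8 in tooth and 24373.3 in skin, 4 of 4 fat markers (283.9 and 3612.5) and 4 of 4 melanocyte markers (872.3 and 47529.9). Of the cartilage markers 2 of 4 were at least 2-fold higher in tooth, as were 2 of 5 neuronal markers. Markers of dermal fibroblasts (1 of 4 at least 2-fold higher in skin, 2 in tooth), Schwann cells (1 of 4 each) and red cells (1 of 4 in tooth) were divided. Adipoq, Plin1 and Cidec of the fat list and Myog of the muscle list were not well above background in tooth. The part of these cell types in the Hox values was not tested. In RNA from whole tissue, fewer cells that express a gene and less RNA per cell cannot be told apart.

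Some probes are shown first, 5′ to 3′, since a Hox value can only be read with the stretch of transcript that was measured. They are examples, and Hoxc11 was detected on neither array. The Hoxb3 probes were not searched for the coding stretches below. In the probes for Hoxa6 (chr6:52158194-52158253, minus strand, mm9) and Hoxc11 (chr15:102787022-102787081, plus strand), a conserved coding stretch was found by translation. The capitals mark the codons of the core of the hexapeptide (Tyr-Pro-Trp-Met) in Hoxa6, the motif with which Hox proteins contact their Pbx partners, and the codons of the third helix of the homeodomain, which reads the DNA, in Hoxc11.
Hoxa6: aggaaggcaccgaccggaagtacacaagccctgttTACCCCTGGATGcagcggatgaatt
Hoxc11: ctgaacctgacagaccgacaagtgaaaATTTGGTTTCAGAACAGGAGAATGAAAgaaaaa

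For Hoxc4 and Hoxc13, which gave bright signals in skin, a stretch of 30 bases is shown. The capitals mark a poly(A) signal hexamer (AATAAA or ATTAAA on the probe strand), which 10 of the 42 Hox probes and 17.7% of the 33182 named probes hold. Among the Hox probes, 4 of the 17 that were well above background in skin and 6 of the 25 others held one, and the stretch of Hoxc13 shows none.
Hoxc4 (chr15:102867213-102867272, plus strand, mm9), bases 31 to 60: cccgtgatcaatAATAAAccagtggctgtg
Hoxc13 (chr15:102759058-102759117, plus strand), bases 31 to 60: aaatgcccatctgaaataggctcctttttt

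Few Hox genes gave a signal in the tooth. A gene was counted as detected when the extraction software called more than 50% of the spots of its brightest probe well above background. On the tooth array 6 of 38 Hox genes (15.8%) were detected, beside 68.5% of all named genes. On the skin array 17 of 38 (44.7%) were detected, beside 65.8%. The skin array alone detected 11 Hox genes (28.9%), beside 3.04% of all named genes, and the tooth array alone detected 0, beside 5.75%. The remaining 21 Hox genes were detected on neither array. At the more lenient call, signal significantly above background, 16 Hox genes were detected in tooth and 25 in skin. That call widened the whole set. At it, 26 of the 38 Hox genes and 21193 of the 24323 named genes were detected on at least 1 array. The share of named genes on each array at that call is not given here, so the lenient counts have no background beside them.

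**Figure D1:**
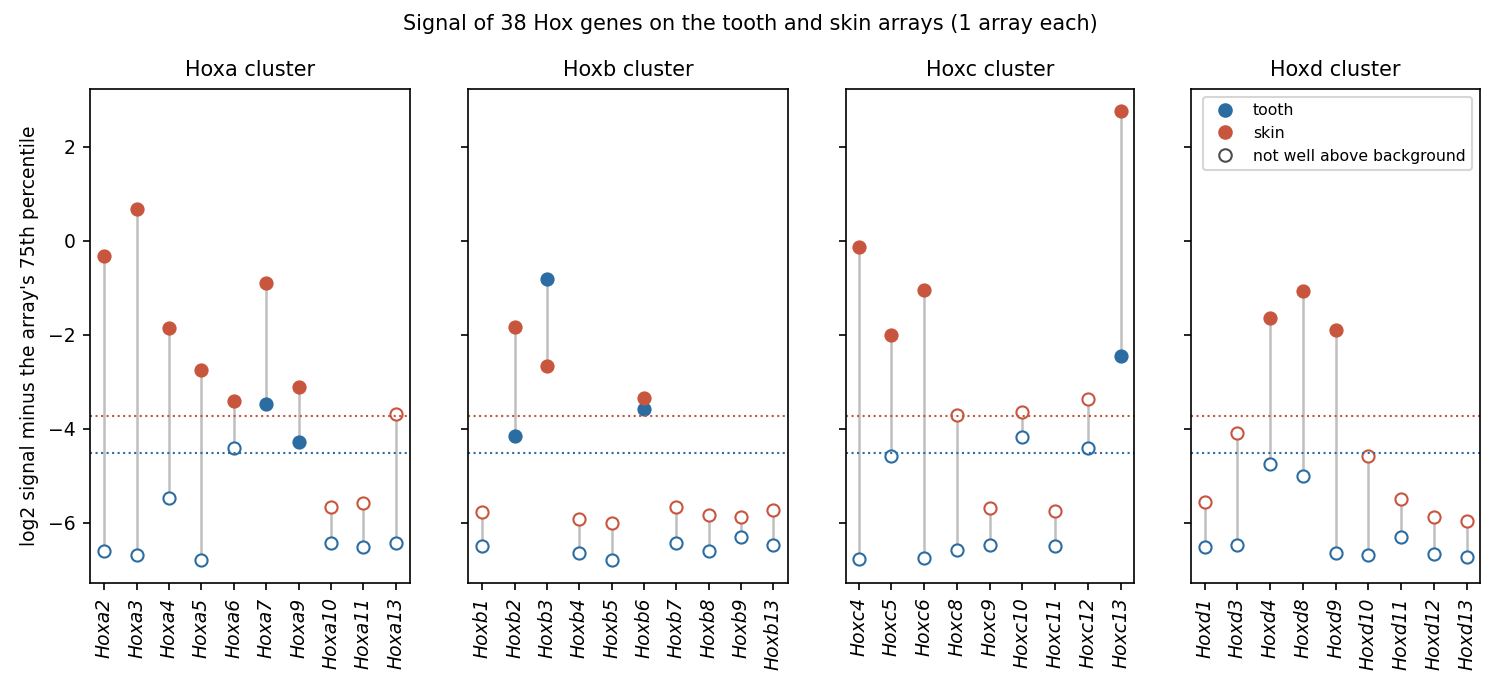
The log2 processed signal of each of the 38 Hox genes (y axis, minus the 75th percentile of the array) is plotted by cluster and number (x axis) for the tooth array (blue) and the skin array (red). Open circles are values not well above background, and the dotted lines are the lowest signal called well above background on each array (-4.52 for tooth, -3.73 for skin). Skin lies above tooth for 16 of the 17 detected genes, of which Hoxb6 turned to -0.38 with spike-in scaling, and tooth lies above skin for Hoxb3.

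The clusters differed in how much of them was detected. In skin 7 of 10 Hoxa, 3 of 10 Hoxb, 4 of 9 Hoxc and 3 of 9 Hoxd genes were detected. In tooth the numbers were 2, 3, 1 and 0. All 11 genes detected in skin alone belonged to Hoxa, Hoxc and Hoxd, and the 3 Hoxb genes detected in skin were also detected in tooth. Detection also differed by position within the cluster. Of the 26 genes of paralog groups 1 to 9, 16 were detected in skin and 5 in tooth. Of the 12 genes of groups 10 to 13, Hoxc13 alone was detected, on both arrays. Among all named genes 65.8% were detected in skin and 68.5% in tooth. In skin, groups 1 to 9 and the Hoxa cluster lay near that share, so their counts are not unusual, whereas groups 10 to 13 lay below it. In the Hoxa cluster all 7 genes from Hoxa2 to Hoxa9 were detected in skin and none of Hoxa10, Hoxa11 and Hoxa13. The signals at this boundary lay close together, since Hoxa6 (25.8 ± 5.7) and Hoxa9 (31.8 ± 5.4) were called and Hoxa13 (21.5 ± 5.9) was not. The probes of the genes detected in skin had a median GC content of 36.7% and those of the others 41.7%, and the part of this gap was not tested.

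**Figure D2:**
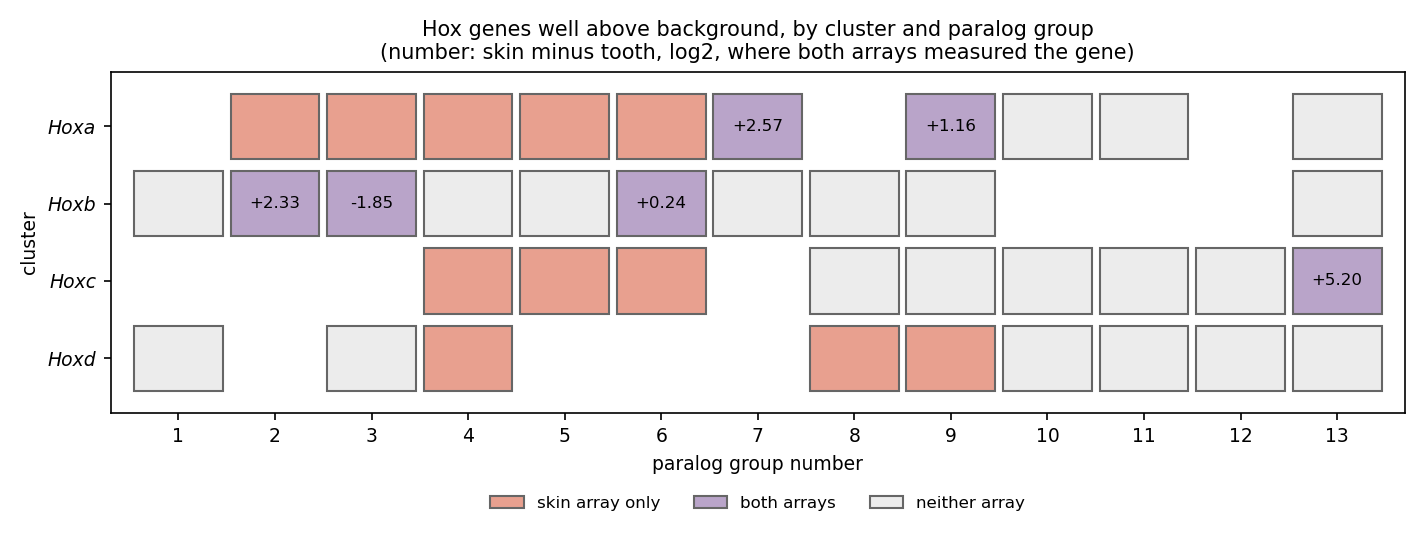
Each box is 1 Hox gene, placed by paralog group (x axis) and cluster (y axis), and its colour gives the arrays on which it was well above background. The number in a box is the difference skin minus tooth (log2) for the 6 genes that both arrays measured. Genes detected in skin alone fill groups 2 to 6 of Hoxa and 4 to 6 of Hoxc and appear 3 times in Hoxd.

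Where a gene was dim on 1 array, its fold is given as a bound. Its reference was the dim array's lowest detected signal (18.7 for tooth, before scaling), or the dim value of the gene itself where that was higher. The values below are processed signals on a linear scale with the error estimate of the extraction software, and folds are those of the signals divided by the 75th percentile of the array, 427.9 in tooth and 276.1 in skin. Each "at least" holds for this scaling and this reference only. Hoxc5, with a bound of 2.50 (log2), differed by 1.94 with spike-in scaling. With normexp background correction all 11 genes detected in skin alone differed by less than their bounds. The reference is not a strict limit, since Hoxc10 read 23.8 in tooth and was not called.

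Hoxa2 and Hoxa3, toward the anterior end of the cluster, were bright in skin and dim in tooth. Hoxa2, which sets the identity of the second pharyngeal arch, read 4.4 ± 4.3 in tooth and 219.0 ± 22.4 in skin, at least 18.1-fold higher. Hoxa3, needed for the thymus and parathyroid, read 4.2 ± 4.2 in tooth and 442.8 ± 44.5 in skin, at least 36.7-fold higher. In both genes the tooth signal was about as large as its error estimate.

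The next 3 Hoxa genes were dimmer in skin. Hoxa4, a gene of the neck region, read 9.7 ± 4.8 in tooth and 76.6 ± 9.2 in skin, at least 6.34-fold higher. Hoxa5, known from the cervical vertebrae and the lung, read 3.8 ± 3.9 in tooth and 40.9 ± 5.9 in skin, at least 3.39-fold higher. For Hoxa6 the values were 20.2 ± 5.1 in tooth and 25.8 ± 5.7 in skin, so that the calls of the software differed while the signals lay within their errors, and the bound of 1.97-fold includes the ratio of 1.55 between the 75th percentiles.

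Both arrays measured Hoxa7 and Hoxa9. Hoxa7, a gene of the thoracic region, read 38.4 ± 5.8 in tooth and 147.5 ± 15.5 in skin and so differed by 2.57 (log2) or 5.94-fold. Hoxa9 read 22.1 ± 4.5 in tooth and 31.8 ± 5.4 in skin and so differed by 1.16 (2.24-fold), and was close to the lowest detected signal on each array. Its second probe read 25.2 in tooth and 21.7 in skin and was well above background in tooth only, so its probes disagreed. The difference fell under 2-fold with 5 of the 10 alternatives, at 0.54 to 0.91 (log2). The remaining alternatives do not back the 2-fold call, since they leave this value as it is or shift every gene alike. Posterior to it, Hoxa10 read 5.0 in tooth and 5.5 in skin. Hoxa11, a gene of the forearm and the uterus, read 4.7 and 5.8 over 10 spots per array. Hoxa13, a gene of the digits and the genital tract, read 4.9 in tooth and 21.5 in skin on its brighter probe, which the software did not call well above background.

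In the Hoxc cluster 3 genes were detected in skin alone, Hoxc4, Hoxc5 and Hoxc6. Hoxc4 read 3.9 ± 3.9 in tooth and 252.5 ± 25.6 in skin, at least 20.9-fold higher in skin. Hoxc5 read 18.0 ± 5.2 in tooth and 68.5 ± 8.7 in skin, at least 5.68-fold higher. Hoxc6, which marks the upper thoracic region, read 4.0 ± 4.0 in tooth and 133.2 ± 14.0 in skin, at least 11.0-fold higher. Hoxc8, the next gene, was dim on both arrays (4.5 in tooth, 21.1 in skin). Between Hoxc8 and Hoxc12 no gene was detected. Hoxc9 and Hoxc11 stayed between 4.8 and 5.3 on both arrays, whereas Hoxc10 read 23.8 in tooth and 22.0 in skin and Hoxc12 read 20.2 and 26.7, near the lowest detected signals.

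Hoxc13, at the end of that cluster, stood apart from the posterior genes. It read 77.9 ± 9.2 in tooth and 1852.1 ± 185.3 in skin and so differed by 5.20 (log2) or 36.8-fold, and both values were well above background. It was the highest difference among the 6 Hox genes that both arrays measured, and the lowest value under any of the 10 alternatives was 4.25 (normexp background correction). Hair follicle markers beside it differed in the same direction in 3 of 4 cases. Krt71, an inner root sheath keratin, read 50.3 in tooth and 131352.2 in skin, Krt35, a hair cuticle keratin, read 26.7 and 24363.9, and Krt27 read 852.1 and 20537.4. Msx2, which is expressed in hair and in teeth, read 13765.0 in tooth and 1681.2 in skin. The part of hair follicle cells in the Hoxc13 values was not tested.

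In the Hoxd cluster the detected genes were Hoxd4, Hoxd8 and Hoxd9, all in skin alone. Hoxd4 read 15.8 ± 5.1 in tooth and 87.6 ± 10.2 in skin, at least 7.25-fold higher in skin. Hoxd8 read 13.3 ± 5.1 in tooth and 131.5 ± 14.2 in skin, at least 10.9-fold higher. Hoxd9, known from the proximal limb and the lumbar region, read 4.3 ± 4.3 in tooth and 73.5 ± 8.7 in skin, at least 6.09-fold higher. Hoxd3 (16.2 in skin) and Hoxd10 (11.6 in skin) lay under the lowest detected signal of the skin array. Hoxd1 and the digit genes Hoxd11, Hoxd12 and Hoxd13 read between 4.0 and 6.1 on both arrays.

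The Hoxb cluster differed from the others. Hoxb2, a gene of the hindbrain, read 23.8 ± 5.0 in tooth and 77.6 ± 9.2 in skin and so differed by 2.33 (log2) or 5.04-fold. Hoxb6 read 35.8 ± 6.1 in tooth and 27.3 ± 6.0 in skin, signals that lay within their errors. Its difference after scaling was 0.24, which turned to -0.38 with spike-in scaling. Hoxb1, Hoxb4, Hoxb5, Hoxb7, Hoxb8, Hoxb9 and Hoxb13 read between 3.9 and 5.4 on both arrays and were not detected, Hoxb1 over 10 spots in tooth and 9 in skin.

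Hoxb3 was the only Hox gene at least 2-fold higher in tooth, and it was so on 1 probe. Its bright probe read 241.1 ± 24.6 in tooth and 43.2 ± 6.6 in skin and so differed by -1.85 (log2), or 3.60-fold higher in tooth. The second Hoxb3 probe, which begins 1888 bases farther along the transcript, read 3.9 in tooth and 4.3 in skin and was well above background on neither array. The array's annotation assigns the bright probe to a transcript of Hoxd3 as well as to Hoxb3, and the probe for Hoxd3 alone was dim on both arrays. With the mean of its probes Hoxb3 differed by -0.53, and with normexp background correction by -0.85, both less than 2-fold.

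**Figure D3:**
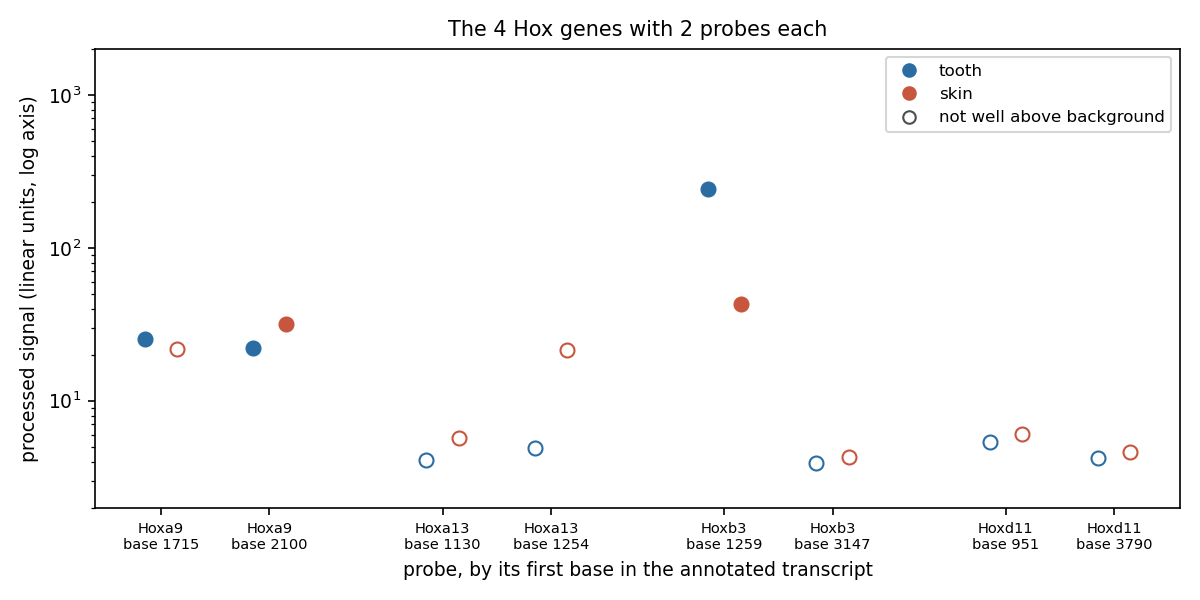
The processed signal (y axis, log scale) of both probes of each of the 4 Hox genes with 2 probes is plotted for tooth (blue) and skin (red), with the first base of the probe in the transcript under its name (x axis). Open circles are not well above background. The bright signal of Hoxb3 in tooth (241.1) comes from 1 probe, and both probes of Hoxa13 and Hoxd11 are dim.

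Of the 17 detected Hox genes, 14 (82.4%), Hoxa9 included, were at least 2-fold higher in skin, beside 14.2% of the 17409 detected named genes, and 1 (5.88%), Hoxb3, was at least 2-fold higher in tooth, beside 15.5%. The count in skin was 13, without Hoxa9, with 5 of the 10 alternatives. The remaining alternatives leave the Hoxa9 value as it is or shift every gene alike. The median difference of the 17 genes was 3.62 (log2, skin minus tooth) and that of all detected named genes -0.04. Since 11 of the 17 entered through the skin array alone, these genes had to be higher there, and the count and the median describe them without adding to the detection calls. With each dim value at its bound the median was 2.61. Among the 6 genes that both arrays measured, 4 (Hoxa7, Hoxa9, Hoxb2 and Hoxc13) were at least 2-fold higher in skin on their brightest probe. Of these, Hoxa9 has the disagreeing probes described above. The matching background was the 15271 named genes that both arrays measured. In that set 1745 genes passed the 2-fold threshold toward skin, whereas 1883 passed it toward tooth. The 21 undetected genes read 3.9 to 23.8 in tooth and 4.3 to 26.7 in skin. Their differences ran from 0.43 to 2.87 with a median of 0.77, and since neither array called them well above background, no difference is read from them. Hoxa13, Hoxc8, Hoxd3 and Hoxd10 had the differences above 2, with tooth signals of 4.2 to 4.9 and skin signals of 11.6 to 21.5.

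Promoter sequences were available from RefSeq (GRCm38.p6) for 22 of the 38 genes, in 24 windows. The 250 bases before the annotated start were searched on both strands for TGATNNAT, the joint site of a Hox protein with Pbx, and for AGGTCA, the core letters bound by nuclear receptors such as the retinoic acid receptors. TGATNNAT was found in 4 of 24 Hox windows (1 of 10 whose gene was detected in skin and 3 of 14 others) and in 7.68% of all 32851 windows. AGGTCA was found in 6 of 24 (3 of 10 and 3 of 14) and in 14% of all windows. The windows of Hoxa2 and Hoxd4, genes detected in skin alone, are shown as examples of each motif, with the match in capitals. In both windows the match lies on the opposite strand and therefore appears as its reverse complement.
Hoxa2 (chr6:52164832-52165081, minus strand): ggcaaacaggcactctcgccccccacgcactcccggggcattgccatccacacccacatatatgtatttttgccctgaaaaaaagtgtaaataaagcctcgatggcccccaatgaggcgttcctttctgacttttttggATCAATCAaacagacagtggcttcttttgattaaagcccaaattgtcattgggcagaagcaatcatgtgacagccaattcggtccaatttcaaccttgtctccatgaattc
Hoxd4 (chr2:74721728-74721977, plus strand): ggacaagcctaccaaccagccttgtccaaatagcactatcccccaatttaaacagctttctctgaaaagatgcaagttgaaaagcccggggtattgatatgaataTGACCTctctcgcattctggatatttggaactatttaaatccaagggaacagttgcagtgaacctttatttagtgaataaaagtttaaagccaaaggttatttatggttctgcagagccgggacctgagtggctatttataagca

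Proteins of the Pbx, Meis and Pknox families bind DNA together with Hox proteins and lend them specificity. Of 8 such genes 7 were detected in tooth and 6 in skin, beside 68.5% and 65.8% of all named genes. The median difference of the 7 was -0.19 (log2), beside -0.04 for all detected named genes. Meis1 differed by 0.24, Pbx2 by -0.19 and Pbx3 by -0.22. Meis2 read 140.0 in tooth and 255.8 in skin and so differed by 1.50 that fell to 0.88 with spike-in scaling. Meis3 read 5011.3 in tooth and 544.2 in skin and so differed by -2.57, while its other probes gave -0.77 and -0.22. Pknox2 was detected in tooth alone, at least 2.21-fold higher there.

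Genes that act on Hox expression were read from a list of 16, of which 13 were detected, beside 17409 of all 24323 named genes. Polycomb and trithorax genes, which keep Hox genes silent or active, lay within 2-fold. Ezh2, the histone methyltransferase of Polycomb, differed by 0.13, Eed by 0.26, Suz12 by -0.01, Bmi1 by -0.27, Rnf2 by -0.02, Cbx2 by 0.93 and Mll1, the trithorax methyltransferase, by 0.70. The Cdx genes, activators of Hox genes in the early embryo, were detected on neither array.

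The genes of retinoic acid, a signal that switches on anterior Hox genes, moved apart. Aldh1a2, which makes retinoic acid, read 869.3 in tooth and 56.8 in skin and so differed by -3.30. Rarb, a receptor gene that is itself a target of retinoic acid, read 1487.8 and 116.4, a difference of -3.04. The enzymes that break down retinoic acid differed in opposite directions. Cyp26a1 read 9591.6 in tooth and 5.3 in skin, where it was not well above background, so it was at least 297.6-fold higher in tooth. Cyp26b1 read 677.5 in tooth and 6210.2 in skin and so differed by 3.83. The receptors Rara (-0.02) and Rarg (0.64) lay within 2-fold.

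Genes that flank the clusters were read next to them. Of 12 such genes 11 were detected on both arrays, beside 15271 of all 24323 named genes. Their median difference was 0.51 (log2), beside -0.03 for those named genes. Skap2, beyond the anterior end of the Hoxa cluster, read 459.7 in tooth and 1474.9 in skin and so differed by 2.31, and was the only one at least 2-fold apart. The other 10 lay between -0.01 (Smug1) and 0.82 (Calcoco1), and Evx1, at the posterior end of Hoxa, was dim on both arrays. With spike-in scaling Skap2 differed by 1.69 and the others by -0.63 to 0.19.

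**Figure D4:**
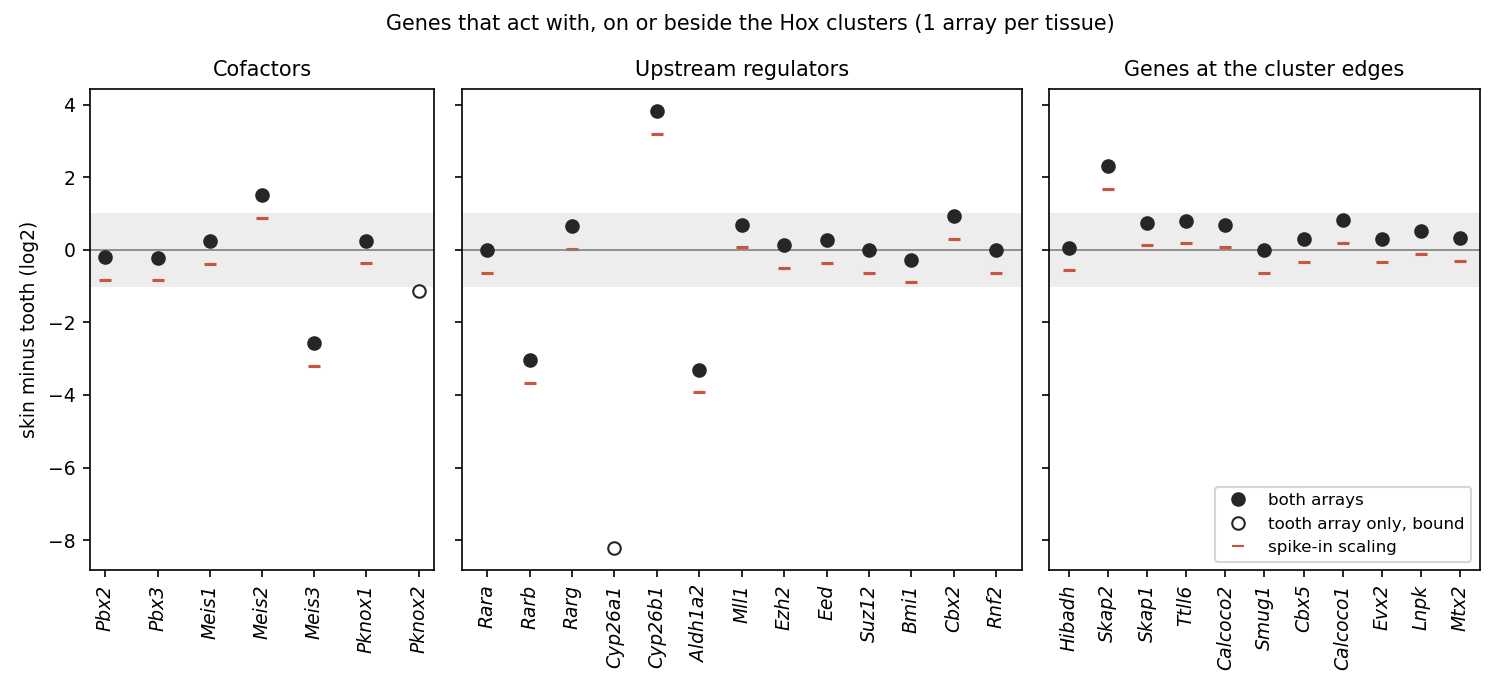
The difference skin minus tooth (y axis, log2) is plotted for the detected cofactors, upstream regulators and cluster-edge genes (x axis), with filled circles for genes measured on both arrays and open circles at the bound for genes detected in tooth alone. Red marks give the same genes after spike-in scaling, and the grey band is less than 2-fold. Most genes lie in the band, and Skap2, Cyp26b1, Meis3, Rarb and Aldh1a2 lie outside it on either scaling, with the bounds of Cyp26a1 (297.6-fold) and Pknox2 (2.21-fold) below it.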

How the data were processed

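Total RNA of 1 tooth and 1 skin sample was measured on 2 one-colour arrays. Per the file headers, the deposited intensities came from Agilent Feature Extraction (version 10.7.3.1), which subtracted background, removed trends within each array and set surrogates for very dim spots. The authors' deposited table held a linear ratio of the processed intensity to 1 factor per array and was used as an alternative. The study's methods name GeneSpring and a percentile shift.

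Outlier spots were dropped (137 in tooth, 146 in skin), spots of a probe were averaged on the log2 scale, and the 75th percentile over non-control probes was subtracted. No spot was saturated. The brightest probe stood for a gene. Of the 42 Hox probes 41 matched the same symbol in RefSeq by accession, and the other, for Hoxd11, kept its array name. Probe positions are in mm9, per the file headers, and what UTR or exon they lie in was not analysed here. Repeated probes with at least 8 spots, all well above background, gave a difference an SD of 0.11 (log2). This SD leaves out dissection, labelling and animals, and the number of arrays limits the precision. Among the Hox genes only Hoxa11 and Hoxb1 had repeated spots. Both were dim, and the spot SD of Hoxa11 in skin was 0.48. Negative controls were well above background in 0 of 308 spots in tooth, which allows a share of up to 0.974%, and in 1 of 308 in skin.

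Of the 39 Hox genes on the array and the cofactors, 1 gene of each kind is not reported here and was left out of the counts. Genes were named by rule: every other Hox gene, the lists of cofactors, regulators and cluster-edge genes, and the other probes inside the clusters. These members and lists were chosen with earlier results of these data known. The 10 alternatives changed scaling, background correction, filter, detection call, dim values or probe choice. Tools were Python 3.11.15, pandas 2.3.3, numpy 2.4.6, matplotlib 3.10.9 and, for normexp (offset 50), limma 3.58.1. Quantile normalization was done with numpy and pandas.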

Additional observations from a re-analysis of the deposited data

Results flagged for a closer look

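Probes inside the clusters that are not Hox genes were read as data beside the main measurement. Of the 39 such probes, 5 were well above background on 1 array only, 3 in skin and 2 in tooth. The shares of all named genes, 3.04% and 5.75%, count each gene by its brightest probe. Most of the 39 are long non-coding or unnamed probes, so these are unlike features and nothing is read from their number. The tooth array called 0 of 308 spots of negative controls well above background, and the skin array 1 of 308. Another 9 of the 39 probes were detected on both arrays and 25 on neither. A transcript on the plus strand at chr6:52119107-52119166 (mm9) overlaps the Hoxa3 probe on 40 of its 60 bases and read 8.8 in tooth and 68.6 in skin, at least 5.68-fold higher in skin, the tissue in which Hoxa3 was detected. AI448005, at chr2:74569698-74569757 next to the Hoxd4 probe at chr2:74566866-74566925, read 15.6 in tooth and 192.9 in skin, at least 16.0-fold higher. In a long non-coding region of the Hoxb cluster, the probe at chr11:96114843-96114902 read 20.9 in tooth and 29.1 in skin and was detected in skin alone. The probe at chr11:96114996-96115055 of the same region and strand read 68.6 in tooth and 4.9 in skin and was detected in tooth alone. The plus-strand probe directly beside it, at chr11:96115056-96115115, was detected on both arrays (404.3 in tooth, 317.0 in skin). So was a minus-strand probe at chr11:96114981-96115040, which overlaps the probe detected in tooth alone, with 2772.8 in tooth and 416.1 in skin. A minus-strand transcript at chr11:96152394-96152453, near Hoxb7, read 32.1 in tooth, where it was detected, and 15.2 in skin. Its bound, tooth over skin, was 0.995-fold, so no difference is read from it.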

How the results depend on the processing

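No paired analysis was possible because each tissue has 1 array, and for the same reason no array could be left out. The count of Hox genes detected in tooth was 16 at the lenient call. The count at least 2-fold higher in skin was 4 when only genes measured on both arrays were used, since 11 genes then drop out, and 13, without Hoxa9, with the median shift, spike-in scaling, quantile normalization, normexp and the mean of all probes. The count at least 2-fold higher in tooth was 0 with normexp and with the mean of all probes. The median difference was 3.37 with a median shift, 2.996 with spike-in scaling, 3.37 with quantile normalization, 1.40 with normexp, 1.01 with no filter, 1.75 with both arrays required, 2.57 at the lenient call and 2.61 with dim values at their bound. Hoxb6 turned to -0.0061 with the median shift, -0.0064 with quantile normalization and -0.38 with spike-in scaling. The median shift moved the median of all named genes by -0.25, spike-in scaling by -0.62 and dropping the filter by 0.22. The other 16 detected genes kept their direction in every alternative that gave a value, Hoxc13 with 4.25 to 5.22. Of 159 single gene values 81 moved by less than the spot scatter of repeated probes well above background, 75 moved farther and 3 reversed. Dim probes can scatter more. The filters and the lenient call cannot change a gene's value, and the deposited table shifts every gene alike by 0.02. The 81 come almost wholly from alternatives that leave most values as they are, so they do not measure robustness. With the median shift, spike-in scaling and normexp every value moved farther or reversed. Normexp adds an offset of 50, which lies above most of the tooth values of the Hox genes, and this pulls differences of dim genes toward 0. Signal over background limits the tooth values, because 32 of 38 genes there were not well above background. Some of these 32 were significantly above background, since 16 Hox genes passed the lenient call in tooth.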

Other observations

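HOTAIR, a long non-coding RNA of the Hoxc cluster, had 5 probes on the array. The probe at chr15:102774847-102774906 (mm9) read 93.7 in tooth and 123.6 in skin and was detected on both arrays, and the other 4 were detected on neither, with signals of 3.9 to 9.1.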
